A study of Mus musculus with 28 samples.

Results

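Expressed Zfp genes, mouse genes named as numbered zinc finger proteins, are described here in NIH/3T3 fibroblasts with and without knockdown of the histone variant H3.3. The genes were selected on their measured level: a symbol made of Zfp and a number, with a mean of at least 2 FPKM, a fragment count scaled by transcript length and library depth, over 5 RNA libraries. That choice took 208 genes of 333 such symbols, and of 23951 symbols in all. The level and rank of these genes are therefore a description and support nothing further. RNA came from 3 clones with H3.3 knocked down by the construct pair OFP-H3.3A/GFP-H3.3B and from 2 control clones with the pair GFP-Luciferase/OFP-Luciferase, labelled wild type, all of the NIH/3T3 Tet-On 3G line. The labels name FLAG/HA-H3.3 cells grown in 2 mg/ml doxycycline for every RNA library, and each library is 1 clone. Chromatin immunoprecipitation with sequencing (ChIP-seq) of MTA1 and RBBP4 covered knockdown and control cells of the same construct pairs, with 1 library per protein and condition. Other ChIP-seq came from unmodified cells labelled wild type, with 1 library each for 6 NuRD subunits (RBBP4, MTA1, MBD2/3, CHD4, HDAC1 and HDAC2) and for 3 histone marks (H3K4me3, H3K9ac and H3K27ac). HA-tagged H3.3 was precipitated in 2 replicates from cells that carried an HA/FLAG-H3.3 construct and were given aphidicolin, which blocks DNA replication, and 2 mg/ml doxycycline. A sequential ChIP from cells with the same construct and doxycycline took chromatin first with FLAG and then with an RBBP4 antibody.

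Most Zfp genes encode DNA-binding proteins with arrays of C2H2 zinc fingers, and many of these proteins carry a KRAB domain that recruits Trim28 (KAP1), the methyltransferase Setdb1 and HP1 proteins to silence transposons and imprinted loci. The finger array usually sits in a single long 3' exon, and in human cells and mouse embryonic stem cells the 3' exons of zinc finger genes are known for H3K9me3 and for ATRX with the chaperone DAXX, which deposits H3.3. H3.3 is also laid down by HIRA at active promoters, independently of replication. NuRD joins the remodeller CHD4 to the deacetylases HDAC1 and HDAC2, with MTA, MBD and RBBP subunits, and RBBP4 is shared with other chromatin complexes. The symbol Zfp also covers proteins that bind RNA or act in ubiquitin transfer and mitosis rather than at DNA.

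Promoter sequences are shown because most Zfp genes with a known strand had H3K4me3, HA-H3.3 and RBBP4 peaks within 2 kb of the 5' end. Their promoters also ranged from poor to rich in CpG, the dinucleotide that marks CpG islands. RefSeq (build GRCm38.p6) gave 208 promoter windows, each of 250 bases before to 50 bases after a start, for 166 of the 208 Zfp genes. The median window held 17 CpG in the Zfp genes, against 21 over 10157 windows of all expressed genes and 7 over all 32851 windows. Below are the 100 bases before the start of 6 genes, read 5' to 3' on the gene's strand, with each CpG in capitals. Zfp618 had the most CpG of any Zfp window, 59, and Zfp710 had 4. Zfp101 had the second highest RBBP4 level, and Zfp935, Zfp963 and Zfp961 were among the genes with the smallest p in the RNA comparison.
Zfp618: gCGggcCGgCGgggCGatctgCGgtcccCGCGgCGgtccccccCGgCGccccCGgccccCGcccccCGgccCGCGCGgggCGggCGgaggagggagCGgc
Zfp101: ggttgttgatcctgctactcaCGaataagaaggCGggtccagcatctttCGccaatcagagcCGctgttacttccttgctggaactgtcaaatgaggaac
Zfp935: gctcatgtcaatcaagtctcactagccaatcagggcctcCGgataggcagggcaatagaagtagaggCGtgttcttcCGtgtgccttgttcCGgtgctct
Zfp963: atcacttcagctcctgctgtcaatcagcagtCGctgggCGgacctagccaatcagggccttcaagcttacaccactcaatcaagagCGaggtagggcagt
Zfp961: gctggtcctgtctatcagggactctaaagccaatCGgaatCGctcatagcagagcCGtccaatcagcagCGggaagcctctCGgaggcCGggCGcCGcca
Zfp710: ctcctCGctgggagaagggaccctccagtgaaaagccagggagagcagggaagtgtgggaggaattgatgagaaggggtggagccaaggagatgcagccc

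In GRCm38.p6 these stretches are chr4:62965467-62965566 (plus strand) for Zfp618, chr17:33394638-33394737 (minus) for Zfp101, chr13:62466813-62466912 (minus) for Zfp935, chr8:69749963-69750062 (minus) for Zfp963, chr8:71950966-71951065 (plus) for Zfp961 and chr7:80024714-80024813 (plus) for Zfp710. All other coordinates are in build mm9. Of 4 short motifs searched on both strands of the whole windows, the CCAAT box (CCAAT) was present in 48.1% of Zfp windows, against 38.6% of the windows of all expressed genes and 37.4% of all windows. The GC box (GGGCGG) was present in 51.4% of Zfp windows, against 65.3% of expressed and 35.7% of all windows. A TATA box (TATAAA) was present in 8.17% of Zfp windows, against 6.69% of expressed and 13.6% of all windows. The first bases of the ZNF143-type core (ACTACAA) were present in 4.81% of Zfp windows, against 4.32% of expressed and 3.24% of all windows. A CCAAT box read on the other strand ends in the letters with which the GC box begins, so neighbouring matches of these 2 can share bases. A match describes letters only.

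The H3.3 genes were measured first as a check of the labels. H3f3a had an FPKM of 71.8, 35.6 and 5.05 in knockdown clones 1 to 3, against 128.3 and 143.5 in control clones 1 and 2, and H3f3b had 144.4, 104.3 and 51.7 against 249.4 and 237.1. Both were lower in every knockdown clone than in both controls, least so in clone 1, but neither was called by limma (log2 differences of -2.44 and -1.39, adjusted p = 0.516 and 0.469). The tables hold no counts, and depth estimated from the confidence bounds was 18.2, 26.5 and 18.6 M fragments in the knockdown libraries and 25.9 and 25.2 M in the control libraries. Of 14 fibroblast markers 12 had a mean FPKM of at least 1, with a summed FPKM of 8219 to 9797 in knockdown clones and 6579 and 7404 in controls. Of the markers of other cell types, 1 of 6 epithelial, 2 of 4 endothelial, 1 of 5 haematopoietic, 1 of 3 pluripotent and 0 of 4 neural genes reached that level, and Epcam, Pecam1, Ptprc and Pou5f1 were among those below it. Bulk RNA cannot tell fewer cells with a transcript from less transcript per cell. ChIP depth, recovered from the level table, ran from 6.62 M reads for HDAC2 to 24.1 M for H3K4me3, with 13.6 and 18.4 M for HA-H3.3. Nothing in the labels says that clones are separate cultures beyond their clone number, so p-values measure the spread between these clones.

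The Zfp genes were transcribed at low levels. Their median of mean FPKM was 5.26, against 14.6 over all 10835 expressed symbols, chosen by the same minimum. Of the 208 genes, 108 reached a mean of 5, 46 a mean of 10 and 17 a mean of 20. The lowest value of any of them in any library was 1.12 FPKM for Zfp661, and the fewest fragments behind a value were an estimated 76.8. A total of 172 genes were at 2 or above in every library, while 2 had a knockdown mean and 12 a control mean under 2, so that the other group carried them over the threshold. Of the symbols left out, 125 were below the threshold and 12 of those were listed at 0 in every library. By mean FPKM, just inside the threshold lay Zfp568 (2.01), Zfp945 (2.04), Zfp934 (2.04), Zfp946 (2.06) and Zfp449 (2.11), and just outside it lay Zfp605 (1.99), Zfp93 (1.99), Zfp760 (1.98), Zfp235 (1.97) and Zfp442 (1.97). Zfp433 and Zfp781 each had 2 entries that were summed, and Zfp433 reached the threshold only through that sum. Reads of both, and of other recently duplicated Zfp genes, may be shared between copies.

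Zfp207 (BuGZ, a Bub3-binding protein of kinetochores and the spindle) was the most abundant, at 76.8, 99.2 and 128 FPKM in knockdown clones and 123 and 95.9 FPKM in controls. The ranges of both groups overlapped. The next by mean FPKM were Zfp414 (38.3), Zfp706 (34.5), Zfp637 (30.4), Zfp106 (30.1), Zfp771 (30.0), Zfp384 (29.7), Zfp503 (27.8), Zfp598 (27.8) and Zfp91 (26.8). Several of these are known for work away from classical silencing: Zfp106 binds RNA, Zfp598 is the ubiquitin ligase that senses collided ribosomes, and Zfp91 is a ubiquitin ligase of non-canonical NF-kappaB signalling. Zfp503, a corepressor of the NET family, had 30.5, 27.9 and 34.1 FPKM in knockdown clones and 26.9 and 19.6 FPKM in controls. Zfp57, the KRAB protein that keeps DNA methylation at imprinting control regions, stood at 35.3, 24.5 and 19.8 FPKM in knockdown clones and 20.9 and 32.8 FPKM in controls. Zfp42 (Rex1), a marker of pluripotent cells, was listed at 0, and Zfp423, an Ebf partner of preadipocyte commitment, was at a mean of 0.00112 FPKM. Nanog, another pluripotent marker, had a mean of 5.82 FPKM.

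Knockdown of H3.3 gave no Zfp gene a call. In the limma fit of log2(FPKM + 1) over the 11728 genes whose mean FPKM reached 1, 0 of the 208 genes passed an adjusted p of 0.05 (Benjamini-Hochberg), where 0.0341% of all tested genes, 4 in number, did so. The smallest adjusted p among the Zfp genes was 0.445. Before adjustment, 8 of them (3.85%) had a p under 0.05, 5 higher and 3 lower in knockdown clones, against 9.81% of all tested genes. No Zfp gene differed by 1 or more on the log2 scale, where 5.77% of all tested genes did. Each difference printed here is on that scale and understates the change of genes at low FPKM, and at pseudocounts of 0.1 and 0.01 the number at 1 or more became 1 and 2, against 8.08% and 8.61% of all tested genes.

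The log2 differences of the Zfp genes had a median of 0.05, quartiles of -0.14 and 0.26 and an SD of 0.30, against a median of -0.10, quartiles of -0.36 and 0.18 and an SD of 0.64 over all tested genes. Of the 208 genes 115 were higher and 93 lower in knockdown clones, that is 55.3% higher, against 40.1% of all tested genes. After quantile normalization of the libraries 140 were higher, and the median was 0.13 where that of all genes was -0.01. The share of all tested genes that were higher in that setting was not computed. Among the 108 genes at a mean FPKM of at least 5 the median was -0.01. All knockdown clones lay above both controls for 42 Zfp genes (20.2%), against 11.4% of all tested genes, and below both for 23 (11.1%), against 21.2%. The choice of members by their overall mean fixes part of these counts: 12 genes reached it with a control mean under 2, of which 7 lay above both controls, and 2 with a knockdown mean under 2, of which 1 lay below both. Among the 194 genes with both group means at 2 or more, 35 (18.0%) lay above and 22 (11.3%) below both controls, 103 (53.1%) were higher and the median was 0.02. Low values also give smaller differences on this scale, and the difference between the sets was not tested.

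**Figure D1:**
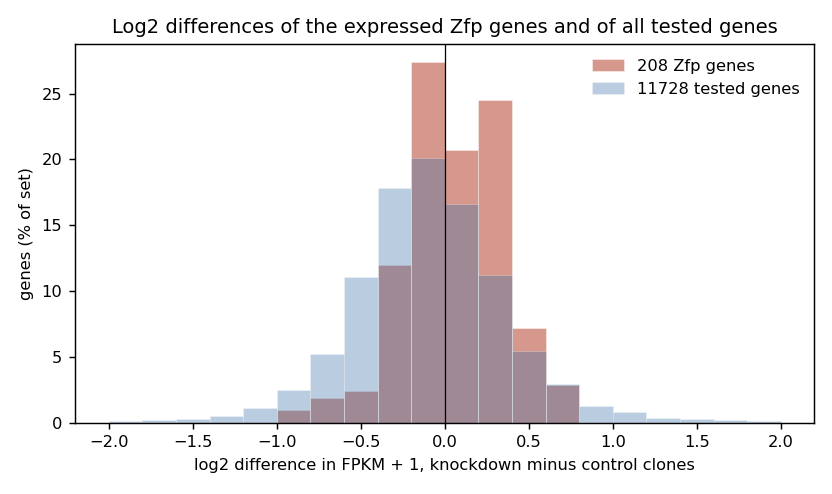
Histogram of log2 differences in FPKM + 1 (x axis, knockdown minus control clones, bins of 0.2) for the 208 expressed Zfp genes and for all 11728 tested genes, as a percentage of each set (y axis). The Zfp genes lie between -0.90 and 0.76, and 1.59% of all tested genes fall outside the plotted range.

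The gap between the medians was widest in 1 clone. Relative to the control mean, the median Zfp gene stood at 0.18, 0.02 and 0.01 on the log2 scale in knockdown clones 1 to 3, against -0.13, -0.08 and -0.06 for all tested genes. Without clone 1 the median difference was 0.02, against -0.08 for all tested genes. Clone 1 also kept the most H3.3 transcript, and Dnmt1 and Asf1b, picked from the gene lists after their values were seen, were lowest in it. The maintenance methyltransferase Dnmt1 had 15.8, 45.0 and 45.5 FPKM in knockdown clones 1 to 3 and 61.8 and 40.5 FPKM in controls, and the replication-coupled histone chaperone Asf1b had 10.8, 30.6 and 37.1 against 60.1 and 34.8. The part of these levels in the gap was not tested.

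Of the 10 genes with the smallest unadjusted p, 7 were higher in knockdown clones. Zfp935 had 5.47, 5.14 and 6.12 FPKM in knockdown clones, against 3.28 and 2.84 FPKM in controls. Every knockdown clone was above both controls, with a log2 difference of 0.69 ± 0.18 (SE) and a limma adjusted p of 0.445. Zfp281, a factor of GC-rich promoters, had 17.7, 17.0 and 10.6 FPKM in knockdown clones and 7.34 and 9.36 FPKM in controls. Its log2 difference of 0.76 ± 0.28 (SE, limma adjusted p = 0.491) was the largest positive one of any Zfp gene, with clone 3 near the higher control. Its paralog Zfp148 (ZBP-89) had 6.18, 7.37 and 6.98 FPKM in knockdown clones and 5.92 and 5.68 FPKM in controls. Zfp326, a subunit of the DBIRD complex that links polymerase elongation to splicing, had 15.5, 18.2 and 18.4 FPKM in knockdown clones and 13.5 and 8.80 FPKM in controls, with the controls far apart. Its log2 difference of 0.62 was 0.34 without control clone 2. Zfp710 had 4.11, 3.14 and 3.77 FPKM in knockdown clones and 2.18 and 2.03 FPKM in controls, without overlap. The other 3, Zfp963, Zfp532 and Zfp825, differed by 0.66, 0.57 and 0.64 and did not overlap either. Zfp963 lay between 2.77 and 4.61 FPKM in knockdown clones, against 1.76 and 1.94 FPKM in controls. Its control mean of 1.85 FPKM is under the threshold, so it was chosen through its knockdown values and its difference supports nothing. Without it and the other genes with 1 group mean under 2, 7 Zfp genes had an unadjusted p under 0.05.

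The other 3 of these 10 were lower in knockdown clones. Zfp598, the ribosome collision sensor, had 17.2, 26.7 and 22.2 FPKM in knockdown clones, against 36.4 and 36.5 FPKM in controls. All knockdown clones lay below the nearly equal controls, with a log2 difference of -0.72 ± 0.23 (SE) and a limma adjusted p of 0.469. Zfp593 had 3.65, 5.49 and 4.86 FPKM in knockdown clones and 9.94 and 6.91 FPKM in controls, a log2 difference of -0.73 ± 0.24 (SE, limma adjusted p = 0.485). Zfp961 had 1.80, 3.25 and 3.32 FPKM in knockdown clones and 6.90 and 4.24 FPKM in controls. The groups did not overlap for either gene, but the controls of Zfp961 differed more from each other than clones 2 and 3 differed from the nearer control, and its log2 difference of -0.79 was -0.50 without control clone 1. The largest negative difference, of Zfp703, a NET family corepressor, rested on 1 control clone. It had 20.9, 7.16 and 10.4 FPKM in knockdown clones and 13.6 and 37.1 FPKM in controls, a log2 difference of -0.90 ± 0.58 (SE), which was -0.20 without control clone 2.

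**Figure D2:**
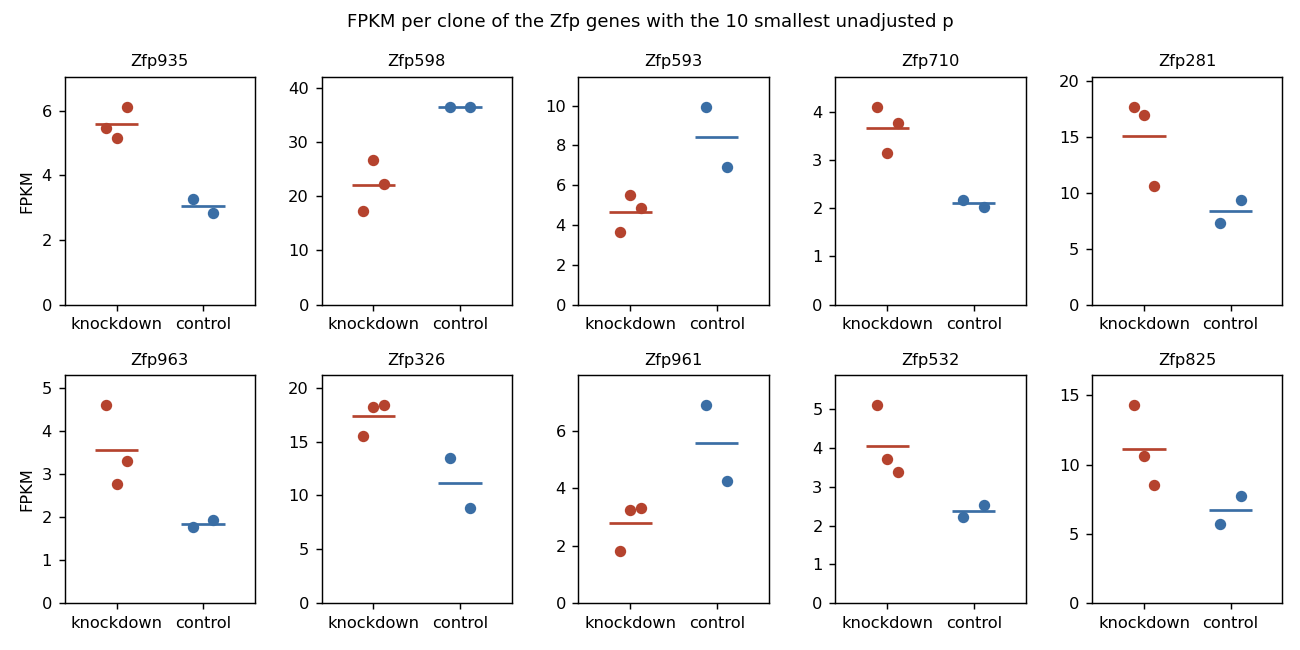
FPKM (y axes, each from 0) of the 10 Zfp genes with the smallest unadjusted p, with 1 point per clone and a line at the group mean, for 3 knockdown and 2 control clones. For 7 genes every knockdown clone lies above both controls and for Zfp598, Zfp593 and Zfp961 below both, and no adjusted p is under 0.445.

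Genes grouped by known role lay on both sides of 0, and none was called. Among the 7 that act on RNA or ribosomes, the log2 differences ran from -0.72 for Zfp598 and -0.57 for Zfp106 to 0.41 for Zfp36 (tristetraprolin, which destabilises messages with AU-rich elements) and 0.62 for Zfp326. Zfp36 had 15.8, 11.7 and 10.7 FPKM in knockdown clones and 8.83 and 9.65 FPKM in controls. Among factors linked to NuRD, Zfp827, whose human protein recruits NuRD to telomeres, had 5.59, 5.80 and 6.24 FPKM in knockdown clones and 3.49 and 4.82 FPKM in controls, a log2 difference of 0.43. Zfp521, whose human protein binds NuRD, and the Zmynd8 partners Zfp592 and Zfp687 differed by 0.08, -0.14 and -0.11. Among KRAB proteins, Zfp110, a partner of the p75 neurotrophin receptor, had 8.24, 7.65 and 6.30 FPKM in knockdown clones and 5.21 and 5.31 FPKM in controls, a log2 difference of 0.42. The retroviral silencer Zfp809 and the placental Igf2 repressor Zfp568 differed by -0.06 and -0.22. The nucleolar protein Zfp330 differed by -0.41.

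The partners of KRAB zinc finger proteins in heterochromatin also gave no call. Of 20 such genes, all tested, 0 were called by limma and 2 had an unadjusted p under 0.05, 7 were higher and 13 lower in knockdown clones, and their median log2 difference was -0.17. Over all tested genes 9.81% had such a p and 40.1% were higher, with a median of -0.10, and the counts of this list lie near those shares. Trim28 had 76.1, 95.6 and 113 FPKM in knockdown clones and 149 and 99.9 FPKM in controls. Cbx1 (HP1 beta) had 54.1, 56.1 and 57.5 FPKM in knockdown clones and 39.1 and 28.2 FPKM in controls, without overlap. Its log2 difference was 0.73 with a limma adjusted p of 0.457. Of 11 genes of the ATRX-DAXX and HIRA pathways, the H3.3 genes included, 0 were called and 2 had an unadjusted p under 0.05, with 3 higher and 8 lower and a median of -0.16, against the same shares over all tested genes. Atrx had 13.2, 13.3 and 16.2 FPKM in knockdown clones and 9.20 and 7.86 FPKM in controls, a log2 difference of 0.67 with a limma adjusted p of 0.450, while Daxx differed by -0.03. Of 25 tested zinc finger genes named otherwise, such as Ctcf, Rest and Yy1, 0 were called and 0 had an unadjusted p under 0.05, 14 were higher and 11 lower, and their median was 0.06, against 9.81%, 40.1% and -0.10 over all tested genes.

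Many Zfp genes sit in clusters, and chromosome 7 alone held 48 of the 208, chromosome 17 held 25 and chromosome 8 held 17. Clustered genes, with another Zfp symbol within 100 kb, numbered 101 and the rest 107. The median log2 difference was 0.05 in clustered and 0.03 in lone genes, with SDs of 0.26 and 0.32 and median mean FPKM of 4.29 and 6.42. Other genes of some chromosomes stood apart as a block in 1 or more clones. On chromosome 8 the median of the 17 Zfp genes lay at 0.00, -0.30 and 0.19 in knockdown clones 1 to 3, and that of the 615 other genes at -0.46, -0.42 and -0.02. On chromosome 6 the 13 Zfp genes lay at 0.18, -0.17 and -0.37, and the 541 other genes at -0.16, -0.10 and -0.30. On chromosome 7 the 48 Zfp genes lay at 0.24, -0.02 and 0.00, and the 804 other genes at -0.09, -0.12 and 0.00. With 3 and 4 Zfp genes only, chromosomes 3 and 14 stood apart too: their other genes lay at 0.16, 0.21 and -0.05 and at -0.34, -0.24 and -0.16. On some chromosomes the controls themselves stood apart. On chromosome 15 control clones 1 and 2 lay at -0.22 and 0.22 for the 9 Zfp genes. They lay at -0.15 and 0.15 for its other genes. For the other genes of chromosome 14 they lay at 0.16 and -0.16, and for those of chromosome 10 at 0.11 and -0.11. With the chromosome medians set equal between libraries, a setting chosen after seeing the data, the median Zfp difference was 0.20, against 0.03 for all tested genes, 155 Zfp genes were higher and 0 were called. How many of all tested genes were higher in this setting was not computed. Copy number of the clones was not tested.

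**Figure D3:**
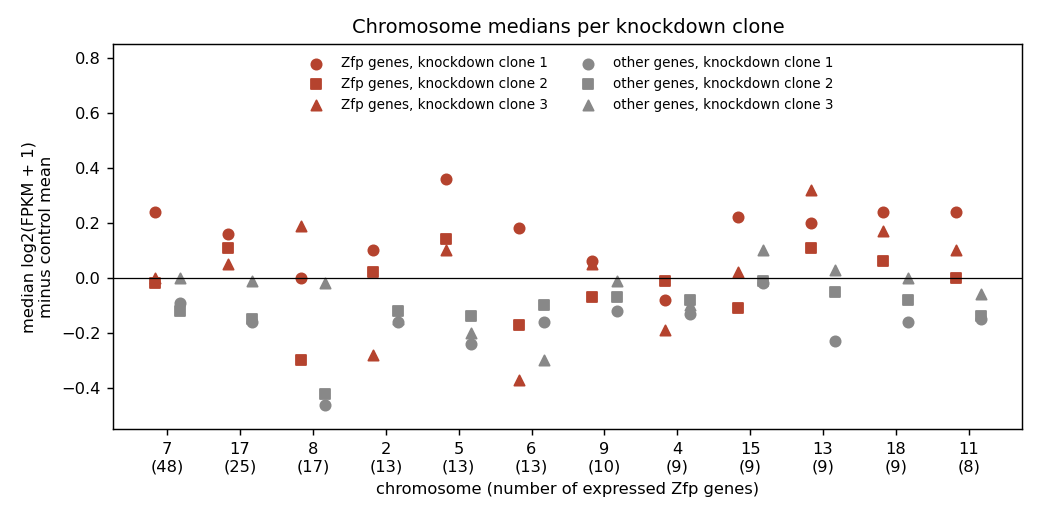
Median log2(FPKM + 1) minus the control mean (y axis) in each knockdown clone, for Zfp genes and, beside them, other tested genes of the 12 chromosomes with at least 8 expressed Zfp genes (x axis, number in brackets). Clones 1 and 2 lie at -0.46 and -0.42 for the other genes of chromosome 8, and most Zfp medians of clone 1 lie above 0.

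Chromatin was read within 2 kb of a locus or of its ends, in build mm9. Peaks of marks were placed by their own position. Those of HA-H3.3 and of the subunits in unmodified cells were placed by the whole region that holds them. Of the 208 loci, 200 (96.2%) had an H3K4me3 peak, 196 (94.2%) an H3K9ac peak and 143 (68.8%) an H3K27ac peak, against 94.9%, 90.8% and 72.7% of all 10835 expressed loci, the Zfp genes included. HA-H3.3 peaks in both replicates were present at 161 loci (77.4%), against 81.2%, and RBBP4 peaks at 179 (86.1%), against 84.5%. HDAC2 was present at 95 (45.7%), HDAC1 at 70 (33.7%), MBD2/3 at 27 (13.0%), and MTA1 and CHD4 at 25 each (12.0%), against 57.1%, 35.8%, 16.8%, 16.8% and 13.7% of expressed loci. The windows of 53 Zfp genes overlap the locus of another gene, and their peaks cannot be assigned to 1 gene. The 8 loci without an H3K4me3 peak were Zfp433, Zfp488, Zfp575, Zfp597, Zfp600, Zfp652, Zfp654 and Zfp781. Zfp433 and Zfp781 have 2 entries each, and peaks were read only at the entry of higher mean FPKM. The sequential FLAG and RBBP4 list of 6 peaks reached no Zfp locus and 8 expressed loci.

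Strand was taken from RefSeq for 166 Zfp genes and 7959 expressed genes, which separates the ends. H3K4me3, the mark of active starts, was within 2 kb of the 5' end of 95.8% of Zfp genes and of the 3' end of 12.7%. At the 5' end most shares in unmodified cells and of HA-H3.3 lay within 5 percentage points of those of genes at large. HA-H3.3 was present in both replicates at 71.7% of Zfp 5' ends and 69.5% of expressed 5' ends, RBBP4 at 86.1% and 82.1%, HDAC1 at 32.5% and 32.1%, and MTA1 at 12.7% and 12.4%. HDAC2 was further apart, at 45.8% of Zfp and 52.8% of expressed 5' ends. At least 4 of the 6 subunits had a peak at 21 Zfp 5' ends (12.7%), against 13.7% of expressed genes, and Zfp37 was the 1 with all 6. Clustered and lone Zfp genes had HA-H3.3 at 71.6% and 71.8% of 5' ends, RBBP4 at 80.2% and 91.8%, and H3K27ac at 60.5% and 74.1%. No test of these differences was made.

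**Figure D4:**
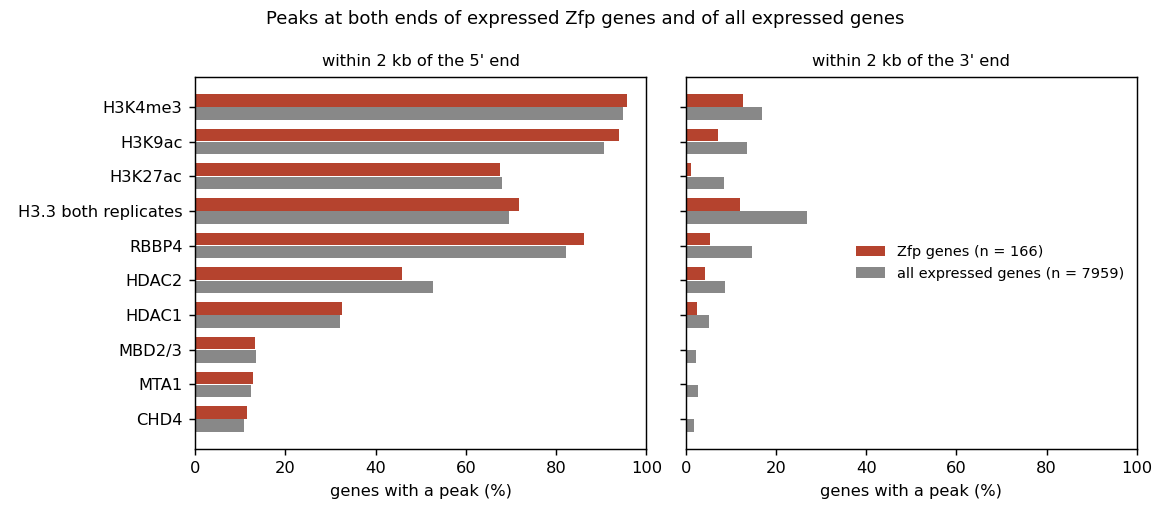
Percentage of genes (x axes, from 0 to 100) with a peak of each mark, of HA-H3.3 in both replicates or of each NuRD subunit (y axis) within 2 kb of the 5' end (left) and of the 3' end (right), for 166 Zfp genes and all 7959 expressed genes with a strand. The bars of both sets are close at the 5' end, and at the 3' end those of the Zfp genes are the shorter in each of the 10 rows, with 12.0% against 26.9% for HA-H3.3. HA-H3.3 and subunits are counted by the region that holds the peak.

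Levels at the 5' end were likewise close. In the region of highest H3.3 within 2 kb of the 5' end, found for 152 Zfp genes, the median HA-H3.3 level was 4.02 and 3.69 RPKM, reads scaled by region length and library depth, in replicates 1 and 2, against 3.57 and 3.59 RPKM over 7365 expressed genes. The quartiles of the Zfp genes were 2.52 and 6.45 RPKM in replicate 1. RBBP4 stood at a median of 3.34 RPKM in Zfp genes and 3.38 in expressed genes, H3K4me3 at 15.2 and 14.8, and H3K27ac at 1.72 and 1.73. The median Zfp region held 79 and 89.5 HA-H3.3 reads and 36 RBBP4 reads, so single regions carry appreciable counting error. The highest HA-H3.3 levels at a 5' end, picked after their values were seen, were those of Zfp398 (15.1 and 10.6 RPKM in replicates 1 and 2, chr6:47784660-47786908), Zfp316 (16.2 and 8.62 RPKM) and Zfp617 (15.3 and 8.16 RPKM). At the other extreme Zfp799 held 1 read in each replicate while its H3K4me3 level was 15.6 RPKM. Zfp935, the gene with the smallest p in RNA, held 5 and 2 HA-H3.3 reads at its 5' region (1.25 and 0.368 RPKM), and Zfp598 held 125 and 130 reads (7.31 and 5.61 RPKM).

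Levels at the 5' end were set beside the RNA differences. Over the 152 Zfp genes, Spearman's rho between the HA-H3.3 level and the log2 difference was 0.01 and -0.01 in replicates 1 and 2, and 0.05 for RBBP4. For H3K27ac it was -0.17, and for H3K9ac -0.14. Levels and RNA come from separate libraries and genes are not replicates. No coefficient was tested, so none is a finding. The 119 genes with an HA-H3.3 peak in both replicates at the 5' end had a median log2 difference of -0.02 and a median mean FPKM of 5.50. The 47 without had 0.14 and 5.06. The 112 genes with an H3K27ac peak there had -0.02 and a median mean FPKM of 6.50, and the 54 without had 0.19 and 3.90. The same splits were not made over all expressed genes, and these gaps were not tested.

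At the 3' end, the share of Zfp genes with HA-H3.3 was below that of genes at large in each replicate. The finger exon usually lies there, but exon positions were not used, and 2 kb around the end may miss much of it. How well reads map to repeated finger arrays was not tested. A peak in both replicates was within 2 kb of the 3' end of 20 of 166 Zfp genes (12.0%), against 26.9% of expressed genes, and replicate 1 alone gave 12.0% against 27.8%, and replicate 2 alone 23.5% against 47.0%. H3K4me3 lay within 2 kb of some of these 3' ends, from the gene's own start or a neighbour's. Among 3' ends without an H3K4me3 peak, 8 of 145 Zfp genes (5.52%) had HA-H3.3 in both replicates, against 17.6% of 6619 expressed genes. In genes at large the share was higher at higher expression, so Zfp genes were set beside genes of their own level. At a mean FPKM of 2 to 5 it was 4 of 72 Zfp genes (5.56%), against 9.38% of expressed genes. At 5 to 10 it was 2 of 43 (4.65%), against 10.4%. At 10 to 20 it was 2 of 19 (10.5%), against 15.9%, and at 20 or more 0 of 11, a small set, against 26.5%. A count of 0 was taken to allow up to 3 genes, a rough bound that treats genes as independent. For 0 of 11 this bound is 27.3%, which covers the share of expressed genes. Replicate 2 alone, the deeper one, gave 9.72%, 20.9%, 31.6% and 36.4% of Zfp genes in these 4 classes. The shares of expressed genes were 19.3%, 25.6%, 35.5% and 57.6%. Over all 3' ends without an H3K4me3 peak replicate 2 gave 17.9% against 38.9%, so the sets were closer in the middle classes. RBBP4 was at 5.42% of Zfp 3' ends, against 14.7%. In unmodified cells CHD4, MBD2/3 and MTA1 were at 0 of 166 each, against 1.83%, 2.37% and 2.69%. By the same rough bound, 0 of 166 allows up to 3 genes, or 1.81%. MTA1 was at 0 of 166 Zfp 3' ends in knockdown cells, against 0.641% of expressed genes, and at 2 of 166 in control cells, against 0.389%. These shares were not tested, and H3K9me3, ATRX and DAXX were not analysed here.

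The 8 Zfp genes with HA-H3.3 in both replicates at a 3' end free of H3K4me3 peaks, named after their values were seen, were Zfp260, Zfp334, Zfp335, Zfp451, Zfp661, Zfp710, Zfp84 and Zfp961. In Zfp961 the region of highest H3.3 (chr8:74491942-74493744) is annotated to a coding exon, with its centre 1.39 kb before the 3' end, and held 62 and 110 HA-H3.3 reads (2.53 and 3.32 RPKM). In Zfp710 (chr7:87236504-87238377) it touched the 3' UTR, at 2.40 and 3.54 RPKM. In Zfp334 (chr2:165200456-165202970) its centre was 1.22 kb past the 3' end, at 6.51 and 5.82 RPKM with 0.575 RPKM of RBBP4 and 0.462 RPKM of H3K4me3. The regions of Zfp451 and Zfp84 reached an annotated promoter, whose gene the annotation does not name, with H3K4me3 levels of 7.51 and 13.9 RPKM. Both regions thus carry H3K4me3 signal though no H3K4me3 peak lay within 2 kb of the 3' end, since regions were counted whole. The highest HA-H3.3 level at any Zfp 3' end was outside these 8, since H3K4me3 lay near: in Zfp316 a region of 5175 bases that touches a coding exon (chr5:144012893-144018067) held 650 and 1957 reads, or 9.26 and 20.6 RPKM, with 2.14 RPKM of H3K4me3. Zfp316 had 5.80, 3.46 and 5.12 FPKM in knockdown clones and 3.42 and 3.92 FPKM in controls, with overlap. A coding exon region of Zfp777 (chr6:47974331-47975851), centred 0.904 kb before the 3' end, held 3.05 and 6.37 RPKM. The median HA-H3.3 level over the 40 Zfp genes with any region at the 3' end was 1.89 and 3.34 RPKM, against 2.16 and 3.63 RPKM over 3872 expressed genes.

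Outside H3K4me3 peaks, most regions in Zfp loci touched an intron. No such share was computed for all expressed loci, and the length of introns was not taken into account. The windows of the 208 genes held 563 regions of the deposited table, of which 304 touched an H3K4me3 peak and 259 did not. A total of 17 genes held no region. The 259 regions had median HA-H3.3 levels of 1.87 and 3.07 RPKM in replicates 1 and 2, against 3.62 and 3.43 RPKM in the 304, and median RBBP4 levels of 0.833 against 3.21 RPKM. By annotation 198 of the 259 touched an intron, 40 the 5 kb downstream of a gene, 21 a coding exon and 20 a 3' UTR. A further annotation was upstream of a gene for 13 and a 5' UTR for 4, and 1 region can carry several. The 259 regions came from 81 genes, and a long locus can hold many. Replicate 2 had a peak in 241 of them and replicate 1 in 110, so most rest on the deeper replicate. By mean HA-H3.3 level, the highest region of this kind was in Zfp867 (chr11:59271663-59273461), with its centre 2.14 kb past the 3' end, at 11.0 and 7.63 RPKM with an RBBP4 level of 4.32 RPKM. Intronic regions of Zfp521 (10.0 and 8.01 RPKM), Zfp462 (6.71 and 7.87), Zfp618 (7.69 and 6.28), Zfp568 (7.69 and 5.99), Zfp532 (7.08 and 6.16) and Zfp106 (6.93 and 5.49) followed, with Zfp334 last of the 8 highest. H3K4me3 was at most 1.00 RPKM in each of these 8 regions.

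**Figure D5:**
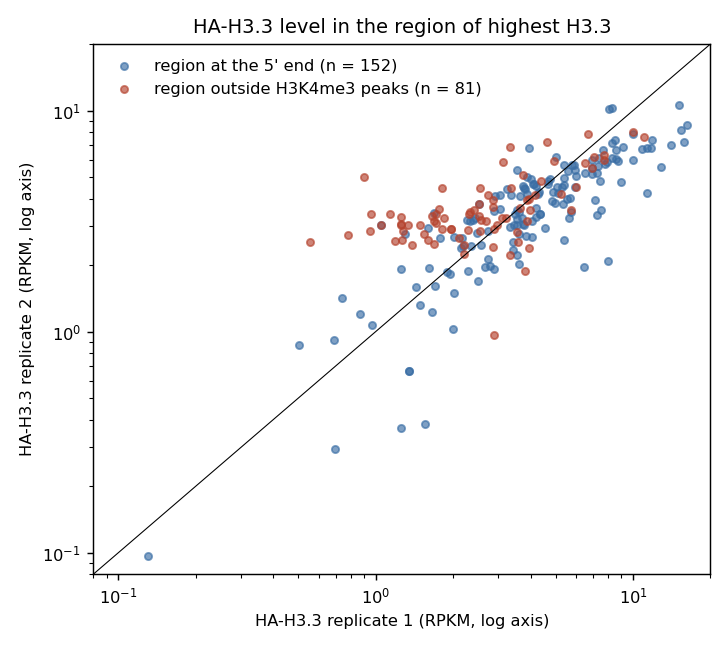
HA-H3.3 level in replicate 1 (x axis) and replicate 2 (y axis), both in RPKM on log axes, for the region of highest H3.3 at the 5' end of 152 Zfp genes and for the highest region outside H3K4me3 peaks of 81 Zfp genes, with a line of equality. Regions at 5' ends lie around the line at medians of 4.02 and 3.69 RPKM, and most low regions outside H3K4me3 peaks lie above it, higher in replicate 2.

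The highest RBBP4 levels in the Zfp loci were mostly at 5' ends. Zfp462, whose strand was not matched, led with 7.09 RPKM (346 reads) over a region annotated upstream of a gene (chr4:54957542-54962967), followed by Zfp101 with 6.95 RPKM (71 reads) over a 5' UTR region (chr17:33530985-33532119). Zfp639, Zfp821, Zfp800, Zfp148, Zfp61 and Zfp277 had 6.39, 6.38, 6.14, 6.06, 5.94 and 5.87 RPKM. HA-H3.3 stood at 3.77 and 3.02 RPKM in the Zfp101 region and at 0.514 and 1.71 RPKM in that of Zfp639, where neither replicate had a peak. The Zfp821 value rests on 12 RBBP4 reads over a region of 209 bases.

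Peaks of MTA1 and RBBP4 in knockdown and control cells had 1 library per condition, so that no test was made and scores rank peaks only within a list. MTA1 had a peak at 6 Zfp loci in knockdown cells and 11 in control cells. Of the 208 genes 5 had it only in knockdown cells (2.40%), against 3.45% of all expressed genes, 10 only in control cells (4.81%), against 4.39%, and 1, Zfp800, in both (0.481%), against 1.38%. The knockdown list held 904 MTA1 peaks with a median width of 861.5 bases and the control list 1703 with a median width of 150 bases, so the lists differ in the kind of peak they hold. At the start of Zfp800 the MTA1 peak scored 166.59 in knockdown cells (chr6:28210998-28212789), against 891.17 and 309.90 for the 2 peaks in control cells. MTA1 peaks in knockdown cells only were at Zfp251, Zfp365, Zfp763, Zfp41 and Zfp777, with scores of 53.2 to 121.60. Of those in control cells only, Zfp746, Zfp664, Zfp532 and Zfp426 had the highest scores, 80.43, 67.02, 65.82 and 59.41, on peaks of 145 to 208 bases.

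RBBP4 had a peak at 27 Zfp loci in knockdown cells and 24 in control cells, of which 17 were shared (8.17% of the 208), against 9.87% of expressed genes. Within 2 kb of the 5' end it was at 12.7% of Zfp genes in knockdown cells and 7.83% in control cells, against 16.5% and 15.2% of expressed genes. In the whole locus it was present only in knockdown cells at 10 (4.81%), against 7.99%, and only in control cells at 7 (3.37%), against 7.25%. Both lists found far fewer Zfp loci than the list of unmodified cells, with its 179, and the RBBP4 depth of the knockdown and control libraries is unknown. The 179 also rests on whole regions that hold a peak, where these lists rest on the peaks themselves, so the measures are not alike. Zfp800 again had the highest score in both conditions, 1985.85 in knockdown cells and 3100.00 in control cells. Zfp746 scored 164.80 in knockdown cells and 454.10 in control cells. In RNA Zfp800 had 2.73, 3.77 and 4.11 FPKM in knockdown clones and 4.11 and 2.38 FPKM in controls, and Zfp746 had 11.8, 10.4 and 9.00 against 11.8 and 10.6 FPKM, so the groups overlapped for both genes.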

How the data were processed

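The submitters' processing notes name TopHat, Cufflinks and Cuffdiff, Bowtie, MACS2 and bedtools, and build mm9. The sources used here do not give the role of each or the handling of inputs. Coordinates of regions and peaks are mm9, 1-based.

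The authors deposited FPKM per gene and RNA library, with Cufflinks bounds per the file headers. Entries of a symbol were summed, and the entry of highest mean FPKM gave the locus. Fragments were estimated by reading the upper bound as 2 SD of a Poisson count. The deposited region levels are log2 values, log2(RPKM + 1), and were turned back into RPKM and whole reads (100% whole within 0.05 for values under 100 reads). The authors' second table gives the fraction of each region covered by peaks of each HA-H3.3 or subunit library. Each region holds a peak of at least 1 of these libraries. The peak lists carry a score, deposited with no header. The sequential list gives pileup signal, −log10 p and fold enrichment per the file headers, written by MACS 2.1.1.20160309; its positions were used.

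Differences between knockdown and control clones were fitted with limma 3.58.1 in R 4.3.3 (eBayes with trend, two-sided, Benjamini-Hochberg) on log2(FPKM + 1) over all 11728 genes whose mean FPKM reached 1, without a block for clone number. The fit and the overlap code were tested on simulated data. The labels do not say whether RNA counting used strand, and without it reads of overlapping or antisense genes cannot be separated. A peak counted for a gene when it shared 1 base with the locus or with 2 kb on either side, or with 2 kb around an end. Gene strand came from RefSeq (GRCm38.p6) by symbol, and 42 Zfp genes had no match or no single strand. Expressed genes are the 10835 symbols whose mean FPKM reached 2, members included.

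The members and gene lists were chosen with earlier results of these data known. Named genes are the 10 highest by mean FPKM, the 10 smallest unadjusted p, the 8 highest HA-H3.3 regions outside H3K4me3 peaks, the 8 highest RBBP4 regions, members with an MTA1 peak in knockdown or control cells (up to 8 by score), 5 on either side of the threshold, and members with a known role. Input libraries were not used here. Alternatives covered the pseudocount, filters, normalization, weights, the block, single clones, windows, scores and peak coverage.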

Additional observations from a re-analysis of the deposited data

How the results depend on the processing

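No Zfp gene was called under any alternative limma setting listed in the processing. The number with an unadjusted p under 0.05, 8 as reported, was 15 after quantile normalization, 24 with array weights and 18 with chromosome medians equalised, a setting chosen after seeing the data, and 3 to 9 when single clones were left out. With clone number as a replicate block, 1 Zfp gene had a p under 0.05, 0 were called and the median was 0.09. The share of all tested genes with such a p was not computed under these alternative settings. These counts therefore cannot be set beside those of other genes. The labels do not say that the clone numbers pair clones. Deviations of same-numbered clones correlated at -0.25 and -0.0952, and those with the other control at 0.25 and 0.0952. With 2 controls these values must mirror each other, so they cannot decide on pairing. Among the genes with both group means at 2 or more, a choice made after seeing the data, 7 had a p under 0.05 and the median was 0.02. The median difference of 0.05 was 0.20 with chromosome medians equalised and 0.02 to 0.09 without single clones.

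Among the named genes, Zfp207 was higher with chromosome medians equalised (0.01), without knockdown clone 1 and without control clone 1 (0.05 each). Zfp414 was higher after quantile normalization (0.10), with array weights (0.03), with the replicate block (0.08), with chromosome medians equalised (0.09), and without knockdown clone 3 or control clone 2 (0.08 each). Zfp637 was higher with the replicate block and without knockdown clone 3 (0.11 each), and Zfp771 was lower without control clone 2 (-0.22). With single clones left out, Zfp207 ranged from -0.31 to 0.05, Zfp414 from -0.12 to 0.08, Zfp637 from -0.61 to 0.11 and Zfp771 from -0.22 to 0.52. The cause was not tested.

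A member threshold of 5 left 108 genes with a median of 9.17 FPKM, with a median difference of -0.01, and one of 1 gave a median of 4.23 FPKM. With peaks covering at least 50% of a region, loci fell to 3 for CHD4, 6 for HDAC1, 14 for HDAC2, 3 for MBD2/3, 2 for MTA1 and 116 for RBBP4. At a score of at least 100, H3K27ac was at 75 loci, MTA1 at 2 in knockdown and 1 in control cells, and RBBP4 at 8 in knockdown and 11 in control cells. The 3' ends with HA-H3.3 numbered 12 within 1 kb, and 20 to 39 with 1 replicate alone. The median level at the 5' end was 3.69 to 4.02 RPKM with 1 replicate alone. Windows of 1 and 5 kb changed no count of loci by over 1.5 times. Depth limits regions of few reads, and with 3 knockdown and 2 control clones differences under about the spread of these clones could not be seen.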

Other observations

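Promoter windows of the Zfp symbols below the threshold were also read in RefSeq. The 126 windows of 107 such genes held a median of 11 CpG, against 17 in the 208 windows of the expressed Zfp genes. The ZNF143-type core (ACTACAA, both strands) was in 12 of the 126 windows (9.52%), against 10 of the 208 (4.81%), and the GC box (GGGCGG) was in 34.9%, against 51.4%. These are values of sequence only, and no test was made.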
